A study of Mus musculus with 17 samples.

Results

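The genes described here encode the subunits of the AMPA and NMDA receptors, the main glutamate-gated ion channels of excitatory synapses. They were chosen by gene symbol, as 4 AMPA receptor genes (Gria1, Gria2, Gria3 and Gria4) and 6 NMDA receptor genes (Grin1, Grin2a, Grin2b, Grin2c, Grin2d and Grin3a), 10 of the 24498 gene symbols in the count table. AMPA receptors are tetramers that carry the fast excitatory current, and the edited GluA2 subunit encoded by Gria2 makes them nearly impermeable to calcium. NMDA receptors pair the obligatory GluN1 subunit, encoded by Grin1, with GluN2 or GluN3 subunits, and admit calcium when glutamate binds while the membrane is depolarised. In the hippocampus both receptor types take part in long-term potentiation, a cellular model of memory.

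Poly(A) RNA of the dorsal hippocampus was sequenced from 17 mice that were wild type (WT) or lacked Acss2 (KO), the gene for the enzyme that makes acetyl-CoA from acetate. The mice came from homozygous crosses within each genotype, and at 6 months of age received tau purified from the brains of Alzheimer's disease patients (Tau) or phosphate-buffered saline (PBS) into the dorsal hippocampus. The study's text places the molecular work 6 months after injection. The male mice formed 4 groups of 3 libraries, with WT and KO each given PBS or Tau. The females all received Tau, with 3 KO libraries and 2 WT libraries. All mice were perfused with PBS and paraformaldehyde before slices of 1 mm, which held CA1, CA2, CA3 and the dentate gyrus, were taken. The libraries are called by the number in their label, are described there as biological replicates, and held 14183131 to 22463635 counts.

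Acss2 ran from 3.07 to 8.81 CPM (the library's counts scaled to a common total) in the 9 KO libraries and from 44.0 to 54.6 CPM in the 8 WT libraries. Markers of CA1, CA2, CA3 and dentate granule cells were detected in each library, but their amounts differed. Library 752 (male KO PBS) had the least dentate granule marker RNA (7 genes, 58.8 CPM summed, against 185 to 306 CPM in the male WT libraries) and the most striatal marker RNA (8 genes, 583 CPM, against 118 to 151 CPM). Library 711 (male KO Tau) had 4155 CPM of 5 pan-neuronal markers, where the other male libraries had 6179 CPM or more. In bulk tissue, fewer cells of a type and less RNA per cell cannot be told apart.

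Gria2 and Grin1 encode the subunits on which each receptor's calcium permeability or assembly turns, and their promoters are shown, Grin1 because it was the subunit gene called between female and male libraries, and Gria2 as the most abundant subunit gene with a promoter entry. RefSeq promoter sequences of the GRCm38.p6 assembly were matched for 5 of the 10 genes (Grin1, Gria2, Grin2d, Gria4 and Grin2c). Each sequence below covers 280 bases on the minus strand, from 250 bases before to 30 bases after the RefSeq start. Grin1 lies at chr2:25319158-25319437 and Gria2 at chr3:80802806-80803085. Capitals mark matches to the GC box GGGCGG or the EGR site GCGGGGGCG on either strand, and another motif, the cAMP response element TGACGTCA, was also searched on both strands.
Grin1: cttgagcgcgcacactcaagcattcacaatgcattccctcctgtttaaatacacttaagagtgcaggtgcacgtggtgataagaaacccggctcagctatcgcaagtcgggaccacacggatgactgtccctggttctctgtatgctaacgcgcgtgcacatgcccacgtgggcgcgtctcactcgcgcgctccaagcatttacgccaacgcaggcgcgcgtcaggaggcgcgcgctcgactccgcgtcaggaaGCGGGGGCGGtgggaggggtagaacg
Gria2: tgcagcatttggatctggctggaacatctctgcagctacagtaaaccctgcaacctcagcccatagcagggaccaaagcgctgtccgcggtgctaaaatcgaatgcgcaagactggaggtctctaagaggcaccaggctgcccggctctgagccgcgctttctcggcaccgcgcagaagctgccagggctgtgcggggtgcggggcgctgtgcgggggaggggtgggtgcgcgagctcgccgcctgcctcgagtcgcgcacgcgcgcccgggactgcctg
The Grin1 window held 30 CpG dinucleotides, 1 GC box and 1 EGR site, which overlap each other, and the Gria2 window held 26 CpG dinucleotides and none of the 3 motifs. Among all 32817 RefSeq promoters of this length, 34.7% held a GC box, 2.84% an EGR site and 1.74% a cAMP response element. In the GENCODE annotation, 1 of 8 coding Grin1 transcripts and 2 of 2 coding Gria2 transcripts start inside these windows, so the Grin1 window describes only 1 of its annotated starts. The matches describe sequence, and no binding was measured.

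Per length of exon, Gria1 was the most abundant of the subunit genes and the order of the lower NMDA genes varied between libraries. Levels between genes are given as CPM per kilobase of the union of a gene's exons, averaged over the 17 libraries. Gria1, which encodes GluA1 (the subunit whose phosphorylation and insertion accompany potentiation), stood at 164 ± 47.4 (SD), and Gria2 at 51.9 ± 7.82. Grin1 followed at 32.5 ± 8.01, Gria3 (an X-linked AMPA subunit gene) at 24.0 ± 3.40, Grin2c at 14.2 ± 3.61 and Gria4, which is prominent in interneurons, at 13.4 ± 3.25. The remaining NMDA genes formed a low group, with Grin3a at 3.16 ± 0.762, Grin2b at 3.12 ± 0.984, Grin2d at 2.64 ± 0.278 and Grin2a at 1.95 ± 0.769.

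On GRCm38, Gria1 spans 57011387 to 57330244 of chromosome 11, Gria2 80681450 to 80802835 of chromosome 3, Grin1 25291181 to 25319187 of chromosome 2, Grin2a 9567898 to 9995560 of chromosome 16 and Grin2b 135713233 to 136173511 of chromosome 6. Over the union of exons, Gria1 was above Gria2, Gria2 above Grin1, and Gria4 above Grin3a in 17 of 17 libraries. Grin1 was above Gria3 in 14 libraries and Gria3 above Grin2c in 15. Some neighbours did not differ beyond their spread, since Grin2c was above Gria4 in 11 libraries, Grin3a above Grin2b in 10 and Grin2b above Grin2d in 11. Grin2d was above Grin2a in 14. Grin3b, the remaining NMDA subunit gene, was the lowest at 0.360 per kilobase.

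The order of the genes, and the library counts given for it, depended on the length used. Grin2a and Grin2b carry long untranslated exons (exon unions of 17933 and 24842 bases, of which 4392 and 4446 bases were coding). Divided by coding length, Grin2b stood at 17.4 and Grin2a at 7.96, Grin2b moved above Grin3a (11.4), and Grin2a moved above Grin2d (4.43). By the mean over libraries, Gria1 (364) and Gria2 (304) remained the first and second genes. Single libraries could differ from this order. In 752, Gria1 had 413 CPM over 2721 coding bases and Gria2 665 CPM over 2649, so Gria1 was below Gria2. The same held in 712, with 500 and 658 CPM. By the longest coding transcript, the means of Gria2 (77.7) and Grin1 (73.7) lay close together.

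**Figure D1:**
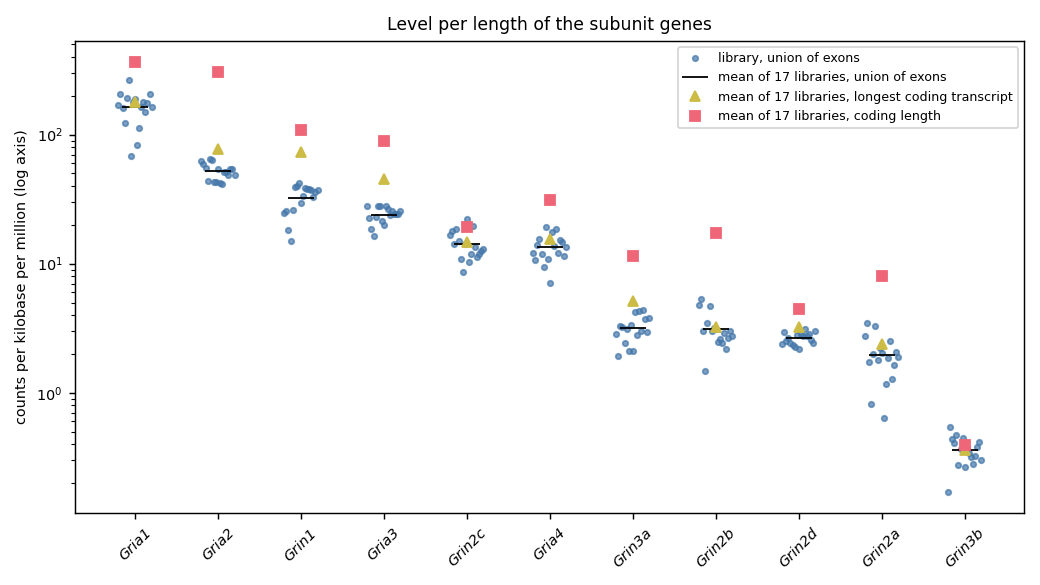
Level per length of the 10 subunit genes and Grin3b, on a log axis in CPM per kilobase; dots are the 17 libraries over the union of exons, and the other symbols are means under 3 length models. The mean of Gria1 is highest under each model, while that of Grin2b moves from 3.12 to 17.4 when only coding length is counted.

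Ratios within a library give the subunit make-up without the library size. Over the union of exons, Gria1 exceeded Gria2 by 3.13 ± 0.679 times (SD, n = 17), from 1.60 in library 752 to 4.20. The groups with the narrowest range were male WT PBS (3.09 to 3.54) and female WT Tau (2.84 to 2.94), whereas male KO PBS spanned 1.60 to 4.20 and male KO Tau 1.957 to 3.47. Gria2 made up 20.8% ± 2.60 of the summed AMPA gene level, and Grin1 made up 55.4% ± 9.27 of the summed NMDA gene level. These values depended on the length used, with a Gria1 to Gria2 ratio of 2.27 by the longest coding transcript and 1.18 by coding length, and a Gria2 share of 24.7% and 38.9%. Over the union of exons, the Grin1 share was 35.8% to 50.3% in female WT Tau and 42.0% to 45.4% in female KO Tau, and 48.2% to 68.8% over the male libraries, so female and male libraries overlapped only through library 711 (48.2%). The Grin2a to Grin2b ratio, which rises during postnatal maturation, was 0.618 ± 0.132, with its lowest value (0.259) in library 712 (male KO Tau).

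Among AMPA receptor genes, Gria1 was the most variable within groups. Its residual SD over libraries was 0.54 on the log2 CPM scale, and 11.1% of the genes tested had a larger one. In male WT PBS, Gria1 had 989, 1088 and 909 CPM (791, 792 and 793), and in male WT Tau 1068, 1238 and 989 CPM (771, 772 and 773). In male KO PBS it had 1597, 413 and 1083 CPM (751, 752 and 753), and in male KO Tau 1143, 500.3 and 680 CPM (711, 712 and 713). In female WT Tau it had 750 and 1160 CPM (331 and 341), and in female KO Tau 1024, 1250 and 968 CPM (314, 324 and 325). The 6 male WT libraries lay close together, whereas the male KO groups held both the highest and the lowest value, and each pair of male KO and WT groups overlapped.

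Among the male libraries, the 3 lowest in Gria1 (752, 712 and 713) were also the 3 lowest in dentate granule marker RNA. Summed dentate granule markers were 58.8 CPM in 752, 99.1 CPM in 712 and 164 CPM in 713, and 482 CPM in 751, the library with the most Gria1. Library 753 had 170 CPM, close to 713, with Gria1 at 1083 CPM against 680 CPM in 713. Neocortical markers (6 genes) went the other way, at 287, 234, 210 and 86.3 CPM in 752, 712, 713 and 751, against 107 to 162 CPM in the male WT libraries. In the female KO libraries 314 and 324 the dentate granule sum was also low (142 and 116 CPM), with Gria1 at 1024 and 1250 CPM. With the dentate granule score as a covariate in the same edgeR test, the SE of the Gria1 change between male KO Tau and male WT Tau was 0.11 in place of 0.40, and the log2 fold change was -0.19 in place of -0.48 (FDR 0.856 and 0.927). The score was taken from the same libraries and its markers differed between these groups (7 genes, median log2 fold change -0.51). This fit therefore cannot separate tissue composition from other differences between the libraries. The part of tissue composition in the Gria1 values was not tested.

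Gria2 varied less, with a residual SD of 0.24 on the log2 scale. Gria2 had 797, 791 and 757 CPM in male WT PBS, 844, 838 and 755 CPM in male WT Tau, 996, 665 and 664 CPM in male KO PBS, and 848, 658 and 647 CPM in male KO Tau, with libraries in the same order as above. Female WT Tau had 679 and 1016 CPM, and female KO Tau 975, 913 and 862 CPM. The male KO libraries again bracketed the male WT libraries, with 4 of 6 lower than each WT library and 2 higher. Gria3 ran from 161 CPM (331) to 275 CPM (712), and Gria4 from 44.6 CPM (711) to 122 CPM (752). Gria4 was high where Gria1 was low in the male KO groups (122 CPM in 752 and 110 CPM in 712), and the Gria4 to Gria1 ratio per length ran from 0.0354 in 751 to 0.283 in 752.

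Grin1 was the most even NMDA gene within male groups. Grin1 had 369, 370.3 and 364 CPM in male WT PBS, 318, 350 and 361 CPM in male WT Tau, 383, 388 and 408 CPM in male KO PBS, and 286, 323 and 375 CPM in male KO Tau. In females it had 146 and 253 CPM in WT Tau and 239, 248 and 177 CPM in KO Tau. All 5 female libraries, which received Tau, were below each male Tau library, and 3.77% of genes separated that way. The female libraries were also below each male PBS library, where treatment differs too and no share over all genes is given. Exons of Grin1 share 1307 bases with Grin1os, an antisense gene with 72 to 233 counts per library. Grin1os held 1.16% (712) to 5.14% (711) of the Grin1 counts. The library kit named in the labels is not the directional version, while the counting used strand. If the libraries kept no strand, reads of both genes over those bases could not be told apart, which was not checked.

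Grin2a and Grin2b encode the GluN2A and GluN2B subunits, which set how long the NMDA current lasts. Grin2a had 33.0, 45.5 and 22.7 CPM in male WT PBS, 29.6, 36.8 and 33.8 CPM in male WT Tau, 59.0, 32.0 and 40.1 CPM in male KO PBS, and 36.5, 11.5 and 21.1 CPM in male KO Tau. Female WT Tau had 14.6 and 35.7 CPM, and female KO Tau 49.6, 62.1 and 30.8 CPM. Its residual SD of 0.60 on the log2 scale was the largest of the 10 genes (8.66% of genes were larger), and its lowest libraries were 712 and 331.

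Grin2b had 60.0, 72.2 and 54.5 CPM in male WT PBS, 65.8, 74.3 and 68.7 CPM in male WT Tau, 117, 74.1 and 78.4 CPM in male KO PBS, and 76.8, 61.3 and 64.9 CPM in male KO Tau. Female WT Tau had 36.4 and 86.1 CPM, and female KO Tau 119, 132 and 75.1 CPM. Each male KO PBS library was above each male WT PBS library, as 2.31% of genes were in that direction. The other pairs of male groups overlapped. Of the remaining genes, Grin2c (GluN2C, found largely in glia and interneurons in the forebrain) ran from 43.8 CPM (752) to 111 CPM (711), Grin3a from 23.8 CPM (324) to 54.2 CPM (793), and Grin2d, with the smallest residual SD of the 10 (0.16), from 14.4 CPM (711) to 20.9 CPM (791).

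**Figure D2:**
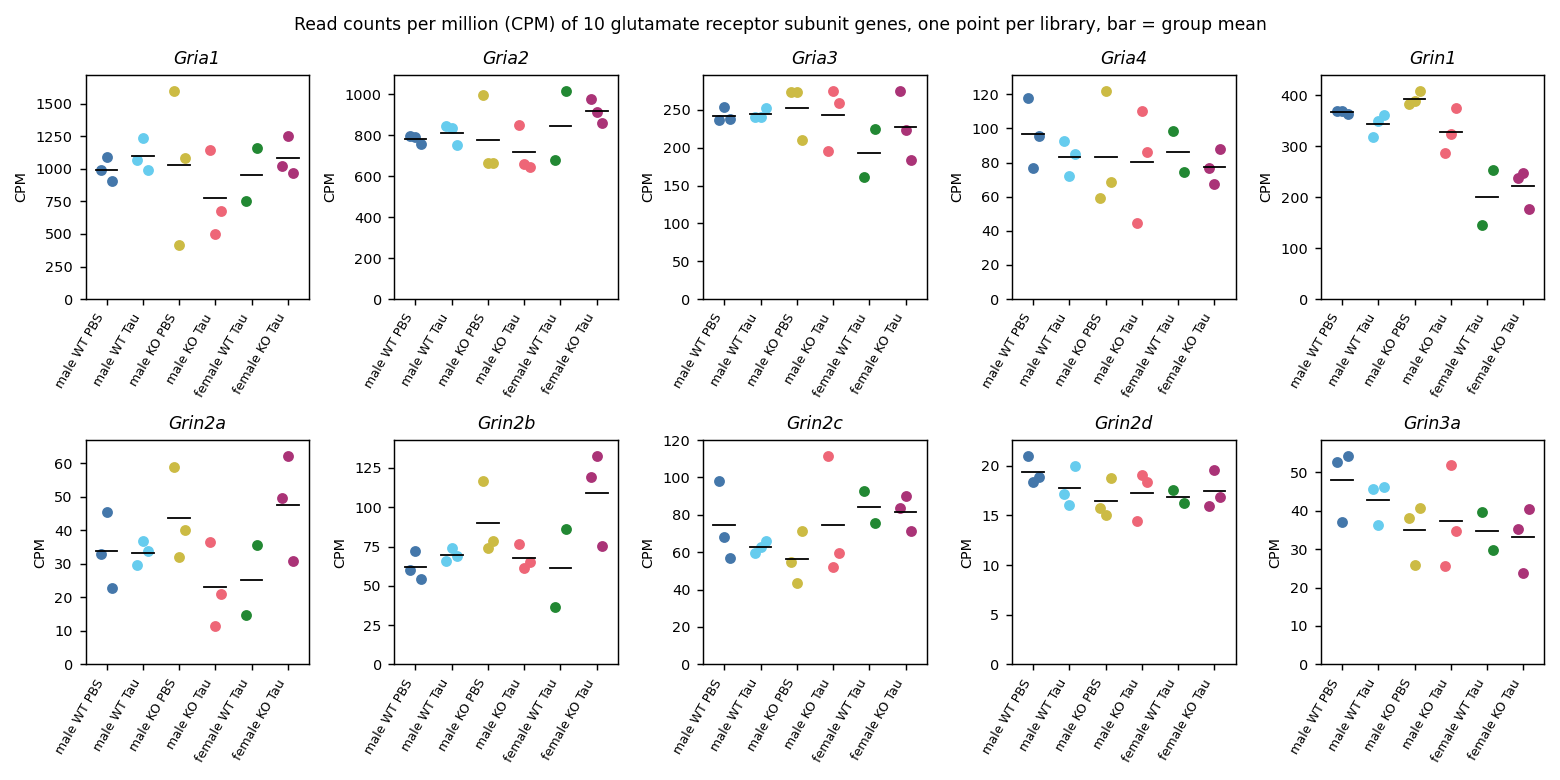
CPM (linear axis from 0) of each subunit gene in the 6 groups; each point is 1 library and the bar is the group mean. Grin1 is lower in the 5 female libraries (146 to 253 CPM) than in the male Tau ones (286 to 375 CPM), as 3.77% of genes were. Gria1 is spread from 413 to 1597 CPM in male KO PBS.

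The question of the male comparisons was how tau and the loss of Acss2, alone or together, changed expression in the hippocampus. None of the 10 subunit genes passed a false discovery rate (FDR) of 0.05 by edgeR's quasi-likelihood test in any of the 7 male comparisons, and few genes of any kind did. For male WT Tau against male WT PBS, male KO Tau against male KO PBS, the genotype by tau interaction, and Tau against PBS averaged over genotypes, 0% of the 15098 genes tested were called. For male KO PBS against male WT PBS, and male KO Tau against male WT PBS or male WT Tau, 0.00662% were called, which was Acss2 alone. The DESeq2 Wald test on the same libraries also called none of the 10, with its share over all genes not given here. At an unadjusted p under 0.05, edgeR gave 0, 1, 0, 0 and 3 of the 10 genes in the comparisons of male WT Tau with WT PBS, KO PBS with WT PBS, KO Tau with WT PBS, KO Tau with WT Tau and KO Tau with KO PBS, and 1 each in the interaction and the average. Over all genes tested, the shares at the same p were 1.86%, 4.42%, 6.33%, 4.71% and 7.95% in these 5 comparisons, 4.18% in the interaction and 5.38% in the average.

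Under tau in male WT mice the values of the subunit genes stayed within a narrow range. Their log2 fold changes ran from -0.26 (Grin2c) to 0.15 (Grin2b), with a median of -0.07 beside -0.01 for all genes. Each Grin1 library of male WT Tau was below each of male WT PBS, which 5.4% of genes also showed in that direction, where the log2 fold change was -0.11 (SE 0.10, FDR 1.00 by edgeR).

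Loss of Acss2 without tau had its largest value at Grin2b. The male KO PBS to male WT PBS log2 fold change of Grin2b was 0.58 (SE 0.18, FDR 0.999 by edgeR), higher in 3 of 3 KO libraries than in any WT library. Beside it, 8 of 8 striatal markers had a positive log2 fold change (median 0.98) and 1 of 5 nuclear-retained RNAs did (median -0.61). The striatal sum was high in 752 alone, at 583 CPM. It was 117 CPM in 751 and 123 CPM in 753, against 137 to 149 CPM in male WT PBS. The part of these markers in the Grin2b value was not tested. Grin1 showed the same separation (0.15, SE 0.10), as did 2.31% of genes in that direction. Grin3a was at the other end, at -0.40 (SE 0.25). With DESeq2 on only these groups and library 752 left out, Grin2b was called at 0.71 (SE 0.20, FDR 0.0297), where 0.769% of genes were called higher. Without 752, edgeR on the male libraries called none of the 10, with its share over all genes not given here.

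Between male KO Tau and male KO PBS, Grin2a, Grin2b and Grin1 were the 3 of the 10 genes with an unadjusted p under 0.05, which 7.95% of all genes had. Their log2 fold changes were -0.98 (SE 0.38) for Grin2a, -0.46 (SE 0.18) for Grin2b and -0.31 (SE 0.10) for Grin1, with edgeR FDR of 0.570, 0.570 and 0.550. In the same comparison the log2 fold change was positive for 5 of 5 nuclear-retained RNAs (median 0.62), 0 of 5 pan-neuronal markers (median -0.16), 0 of 8 striatal markers (median -0.78) and 8 of 8 choroid plexus markers (median 2.54). Nuclear-retained sums were 6072 CPM in 711, 2570 and 3407 CPM in 712 and 713, and 2124 to 2797 CPM in KO PBS. Pan-neuronal sums were 4155 CPM in 711, 7317 and 7048 CPM in 712 and 713, and 6219 to 8661 CPM in KO PBS. Striatal sums were 583 CPM in 752 and 117 to 199 CPM in the other libraries of both groups. Choroid plexus sums were 4025 CPM in 713 and 24.1 to 287 CPM in the others. The part of these markers in the changes was not tested. All KO Tau libraries were below all KO PBS libraries for Grin1, and 2.85% of genes separated that way. The genotype by tau interaction was -0.60 (SE 0.25, FDR 0.996) for Grin2b and -0.94 (SE 0.53, FDR 0.996) for Grin2a. Averaged over genotypes, Tau minus PBS was -0.21 (SE 0.07, FDR 0.888) for Grin1.

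**Figure D3:**
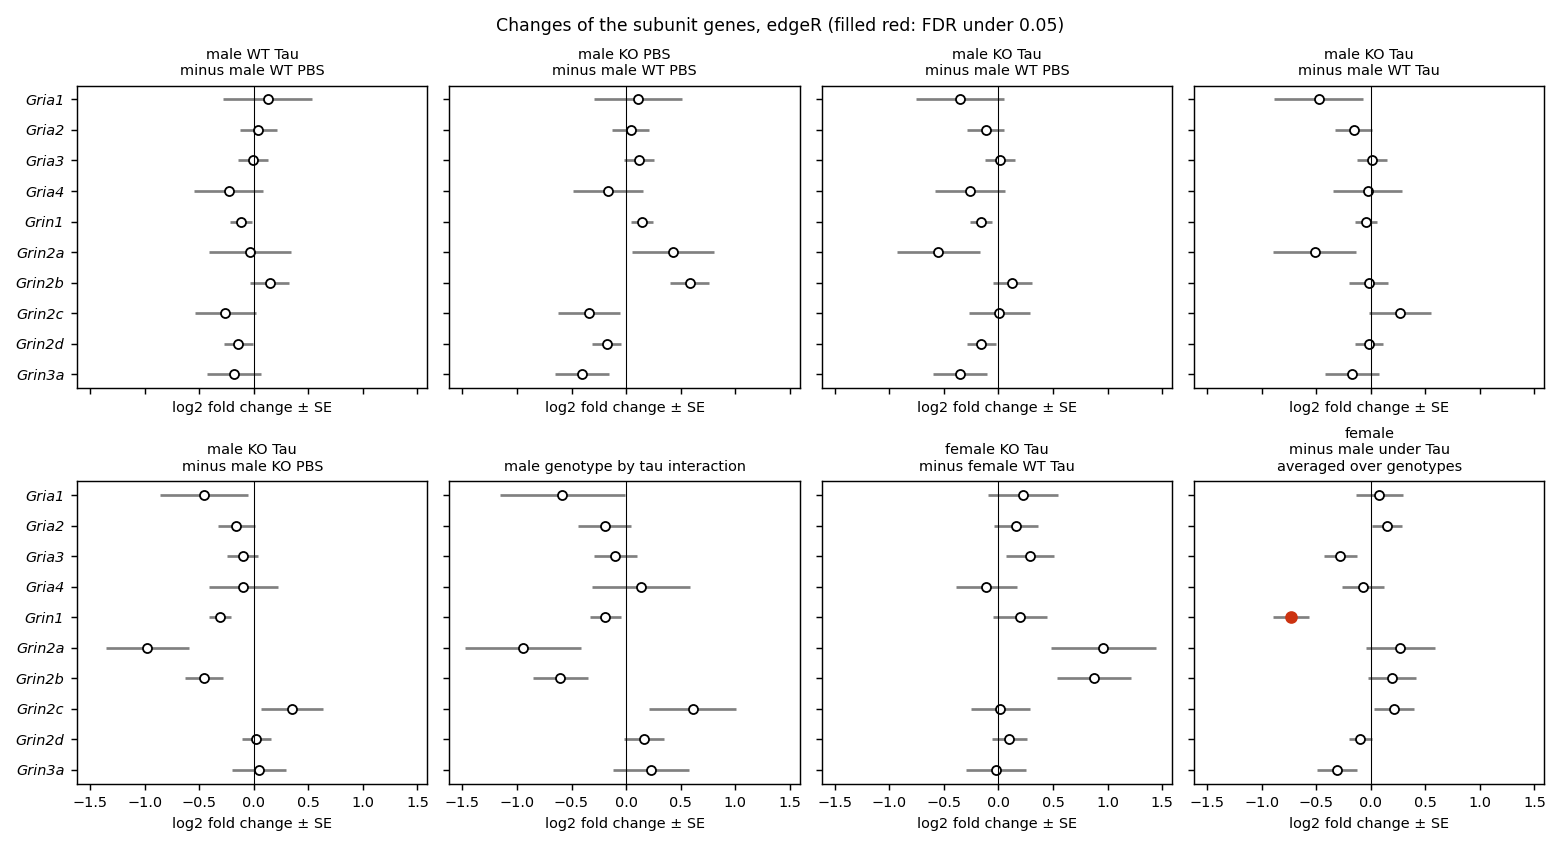
Log2 fold change with its standard error (SE) for the 10 subunit genes in 8 comparisons, from edgeR; filled red marks an FDR under 0.05. The filled point is Grin1 in female against male libraries, at -0.73, and all others are open.

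The changes in male KO Tau turned on library 711. Gria1 in male KO Tau against male WT Tau was -0.48 (SE 0.40, edgeR FDR 0.927) with all libraries and -0.88 (SE 0.42, FDR 0.373) without 711, and Grin2a was -0.51 (SE 0.38) and -1.02 (SE 0.35, FDR 0.352). The labels give 3 male KO Tau libraries, and the study's text gives fewer, and which was left out is not given in the sources used here. With DESeq2 on only the groups compared and 711 left out, 3 of the 10 genes were lower in male KO Tau than in male WT Tau, namely Gria1 (-0.88, SE 0.14, FDR 1.44e-07), Grin2a (-1.02, SE 0.23, FDR 0.000500) and Gria2 (-0.30, SE 0.08, FDR 0.00489), where 5.16% of genes were called lower. Against male WT PBS, Gria1 (-0.75, SE 0.14, FDR 8.97e-06) and Gria2 (-0.26, SE 0.06, FDR 0.00232) were called lower, beside 3.7% of genes. The KO Tau libraries that then remained, 712 and 713, were those with the neocortical and dentate granule marker sums given above, and 713 had 4025 CPM of choroid plexus markers (8 genes) where each other library had 577 CPM or less. edgeR on the male libraries without 711 called none of the 10, with its share over all genes not given here.

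Leaving out both 711 and 752 gave calls within edgeR. The mean absolute deviation of the 10 genes from their group mean was 0.454 in log2 for 711, 0.359 for 752 and 0.354 for 712, which was kept. Of the KO libraries of each treatment, 752 was the lowest with PBS and 711 the highest with Tau in Gria1, Grin2a and Grin2b, so leaving out both widens the difference between KO Tau and KO PBS by the choice of libraries. Gria1 in male KO Tau against male WT Tau was then -0.88 (SE 0.18, edgeR FDR 0.0284), beside 2.33% of genes called lower. Against male KO PBS, Gria1 was -1.24 (SE 0.20, FDR 0.00454), Grin2a -1.65 (SE 0.33, FDR 0.0114) and Grin2b -0.68 (SE 0.18, FDR 0.0348), beside 6.11% of genes. The interaction was called for Gria1 (-1.37, SE 0.25, FDR 0.0141) and Grin2a (-1.62, SE 0.42, FDR 0.0441), beside 3.78% of genes. These comparisons rest on 2 libraries in each KO group, and 751, 1 of the remaining KO PBS libraries, had the most dentate granule marker RNA of all. With all other libraries kept and 751 left out, the Gria1 change between male KO Tau and male KO PBS was 0.03 (SE 0.39).

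**Figure D4:**
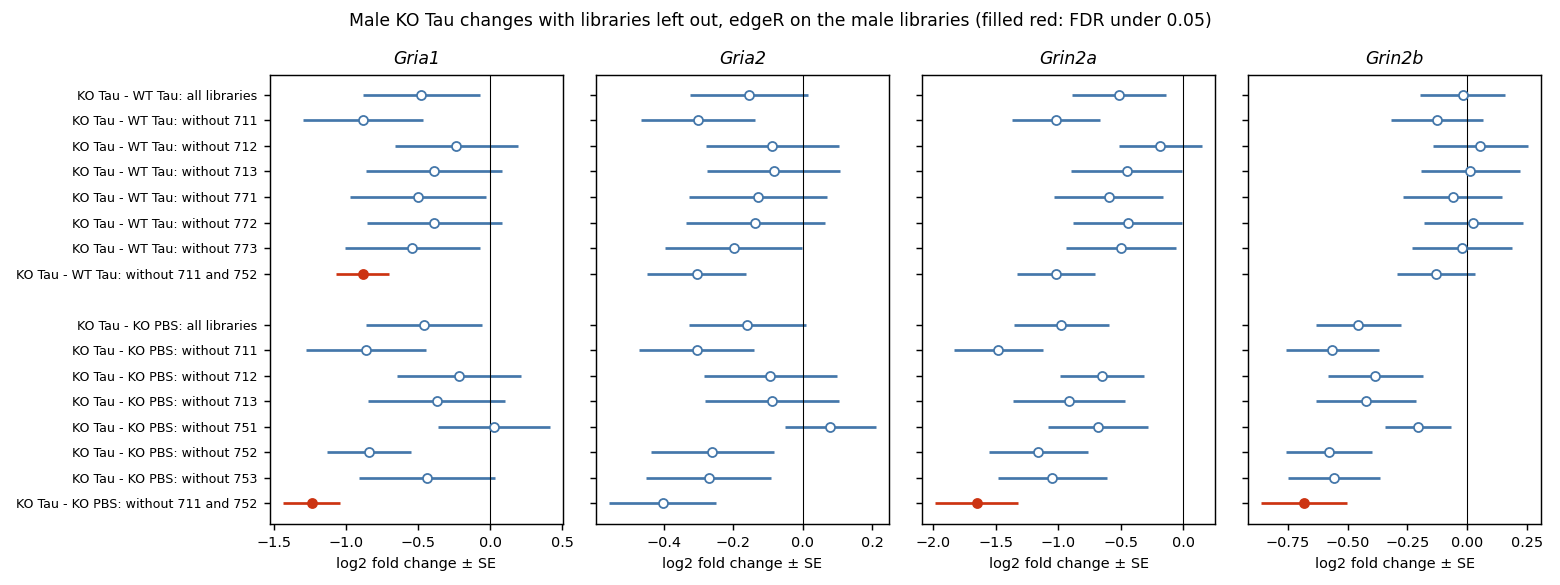
Log2 fold changes with SE of Gria1, Gria2, Grin2a and Grin2b in male KO Tau against male WT Tau and against male KO PBS, from edgeR with each library named on the left removed; filled red marks an FDR under 0.05. Calls appear only where 711 and 752 are both removed, and Gria1 against KO PBS lies at 0.03 without 751.

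In female mice under tau, none of the 10 genes passed the test between KO and WT, where edgeR called 0.00649% of 15419 genes (1 gene), and neither did the sex by genotype interaction, with 0% called. Grin2b was 0.88 higher in log2 in female KO Tau (SE 0.34, FDR 0.997 by edgeR) and Grin2a 0.96 (SE 0.48, FDR 0.997). The female KO and WT libraries overlapped for both genes, with library 341 (86.1 CPM of Grin2b and 35.7 CPM of Grin2a) above library 325 (75.1 and 30.8 CPM). The sex by genotype interaction of Grin2a was 1.48 (SE 0.64, FDR 0.978). In female KO Tau against female WT Tau the log2 fold change was positive for 5 of 5 CA1 markers (median 0.47) and 0 of 7 dentate granule markers (median -0.42). It was positive for 5 of 5 nuclear-retained RNAs (median 0.49) and 8 of 8 choroid plexus markers (median 1.13). The same held for 0 of 6 oligodendrocyte (median -0.48), 0 of 6 astrocyte (median -0.20) and 1 of 8 striatal markers (median -0.65). The part of these markers in the Grin2a and Grin2b values was not tested. Library 331 was the lowest female library in both genes and in CA1 markers (323 CPM), and had 11574 CPM of oligodendrocyte markers. Without library 341 the WT arm was library 331 alone, assumed to vary like the KO libraries, and DESeq2 on the female groups then gave Grin2a (1.81, SE 0.37, FDR 0.00181) and Grin2b (1.69, SE 0.32, FDR 0.000563) as higher, beside 0.503% of genes, a value fixed by which WT library was kept. edgeR on the Tau libraries without 341 called none of the 10. Averaged over male PBS, male Tau and female Tau, KO minus WT of Grin2b was 0.48 (SE 0.17, FDR 0.987), in a fit that called 0.00641% of genes.

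Female and male libraries under Tau differed at Grin1. Averaged over genotypes, Grin1 was lower in females, at -0.73 on the log2 scale (SE 0.17, FDR 0.0142 by edgeR), the only one of the 10 genes to pass. This comparison called 23.8% of genes, with 11.4% higher and 12.4% lower in females. Like Grin1, 3.77% of genes had every female library below every male Tau library. Without library 331 the Grin1 change was -0.55 (SE 0.15, FDR 0.0612), and without each other library in turn it stayed below an FDR of 0.05. Grin2c was also called higher by limma voom with sample weights (0.40, SE 0.12, FDR 0.0203) and by edgeR without 711 (0.44, SE 0.10, FDR 0.00566), and Gria3 lower by voom (-0.33, SE 0.12, FDR 0.0443). Over all genes, voom called 19.5% higher and 20.6% lower, and edgeR without 711 called 21.2% higher.

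Sex moved together with the cell make-up of the libraries. Pan-neuronal markers summed to 4317 to 5248 CPM in the female libraries and to 4155 CPM in 711 and 6179 to 7317 CPM in the other male Tau libraries. Astrocyte markers (6 genes) summed to 2675 to 4364 CPM in females, 2705 CPM in 711 and 1299 to 1876 CPM in the other male Tau libraries. Nuclear-retained RNAs, a sign of RNA quality, summed to 3596 to 5995 CPM in females, 6072 CPM in 711 and 2570 to 3437 CPM in the others. Thalamic markers summed to 97.0 CPM in 314 and 250 to 453 CPM in the other females, against 100 to 199 CPM in male Tau libraries. By edgeR, 3 of 7 thalamic and 4 of 5 endothelial markers were called higher in females. Called lower were 5 of 8 inhibitory neuron and 2 of 6 neocortical markers. Over all genes, 11.4% were called higher and 12.4% lower. In 711, Grin1 was 286 CPM, above the females (146 to 253 CPM) and below the other male Tau libraries (318 to 375 CPM). The part of these differences in the Grin1 values was not tested, and sex cannot be told apart from the other differences between the sets of libraries.

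**Figure D5:**
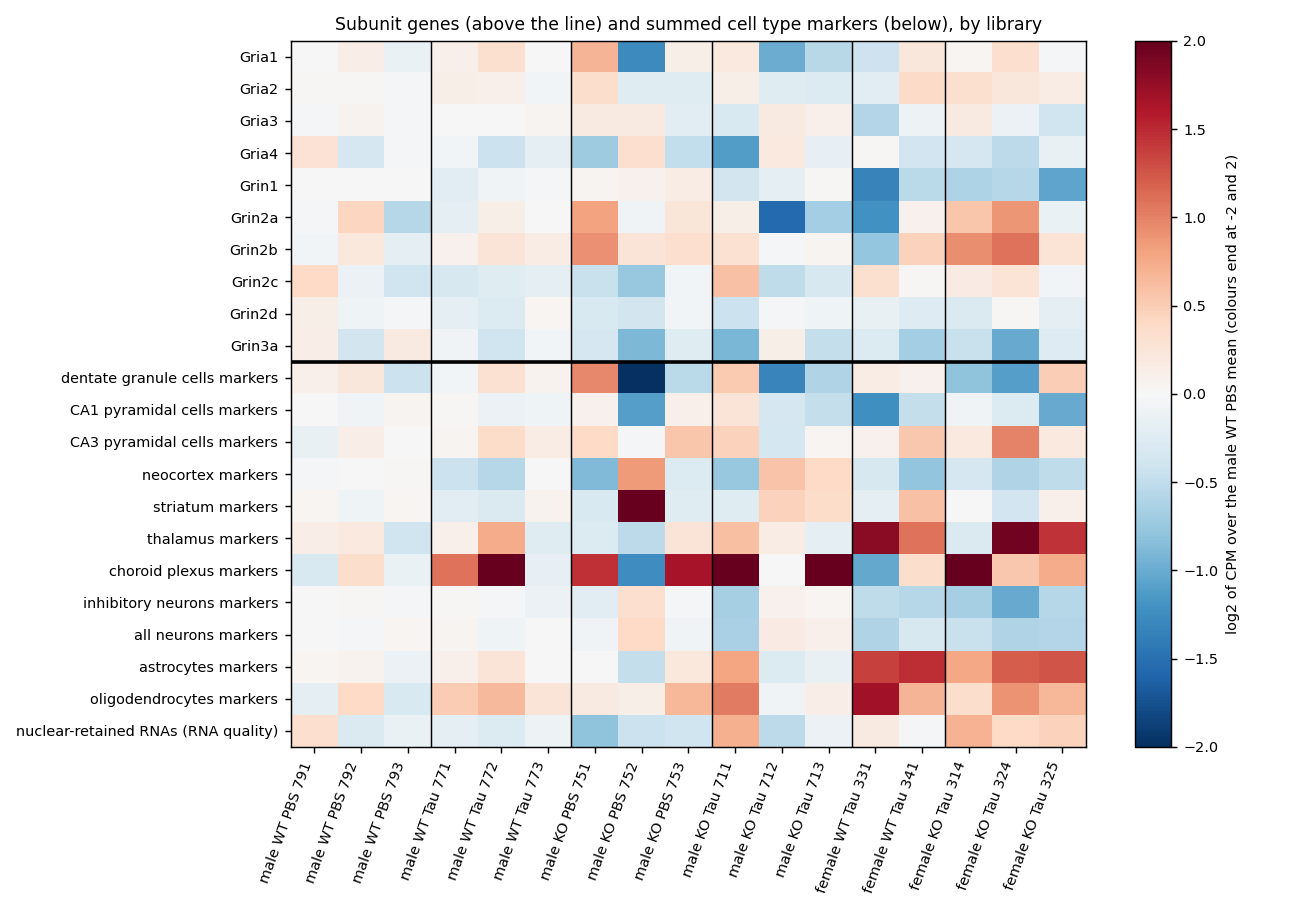
Log2 ratio of each library to the male WT PBS mean for the 10 subunit genes (above the line) and for summed CPM of cell type and RNA quality markers (below), with colours that end at -2 and 2. Library 752 is low in Gria1 and dentate granule markers, and the female libraries and 711 share high astrocyte and low pan-neuronal sums.

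Partners of the receptors were examined as 3 lists, namely AMPA receptor auxiliary and trafficking genes (24), NMDA receptor scaffold and co-agonist genes (17) and downstream signalling genes (17). No member was called by edgeR in 10 of the 11 comparisons. By unadjusted p, Neto1, which encodes an auxiliary protein of glutamate receptors, had the smallest p of these genes in male KO Tau against each other male group, at -0.66 against male KO PBS (SE 0.14, FDR 0.550) and at -0.55 against male WT Tau (SE 0.14, FDR 0.927). Ephb2, a receptor tyrosine kinase that binds NMDA receptors, was at 0.36 (SE 0.12, FDR 0.999) in male KO PBS against male WT PBS and at -0.41 (SE 0.12, FDR 0.550) in male KO Tau against male KO PBS. Both comparisons use the same KO PBS libraries.

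Between female and male libraries under Tau, 1 AMPA partner was higher and 7 were lower of 24, with a median log2 fold change of -0.24 beside -0.01 for all genes. The lower ones included Cacng3, an AMPA receptor auxiliary subunit (-1.03, SE 0.23), Gsg1l (-1.03, SE 0.28), and Nsf, which acts in receptor trafficking (-0.54, SE 0.12). The higher one was Adarb1 (0.66, SE 0.17), whose product edits Gria2 transcripts. Of the 17 NMDA partners, Dao, which degrades the co-agonist D-serine (2.17, SE 0.46), Shank1 (0.71) and Shank3 (0.79) were higher and Ephb2 (-0.77) and Dlg3 (-0.41) were lower, with a median of -0.02. Rasgrf1 (-0.45) and Camk2g (-0.50) were lower among 17 signalling genes, with a median of -0.26. Over all genes 11.4% were higher and 12.4% lower, so the 2 of 17 lower NMDA partners and the 2 of 17 lower signalling genes were near that share. These calls stand beside the marker sums given for Grin1.

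The genes whose level was most like that of each subunit over the 17 libraries were found by Pearson's r of log2 CPM among 15593 genes, as a description. The points share their libraries, which differ in marker sums, depth and sex. For Gria1 the closest was Shisa6, an AMPA receptor auxiliary protein gene (r = 0.985, rho = 0.973, and r = 0.979 without 752 and 712, the 2 libraries farthest from the median). For Grin1 it was Ube4b (r = 0.986, rho = 0.963, and r = 0.959 without 331 and 325). Grin2a was most like the potassium channel gene Kcnj6 (r = 0.959, rho = 0.975, and 0.934 without 712 and 331), and Grin2b most like Cyld (r = 0.938, rho = 0.860, and 0.887 without 331 and 324). Gria2 went with Pds5b (r = 0.934), Gria3 with Scn2a1 (0.949), Gria4 with Prune2 (0.940), Grin2c with Pax6 (0.912), Grin3a with Rspo2 (0.930), and Grin2d with Itpkc (0.813), the weakest of the 10.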

How the data were processed

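Libraries were prepared from poly(A) RNA. The authors aligned reads with STAR 2.5.2 to GRCm38 and counted exon reads per gene with HTSeq 0.9.1, reverse-stranded. The deposited values were raw counts per gene symbol, without normalization, and the annotation release was not given in the sources used here. Exon and coding lengths came from GENCODE vM21, in which 96.4% of symbols were found by name.

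Groups came from the labels. Tests were run in R 4.3.3 using edgeR 4.0.16 (quasi-likelihood F-test; TMM, filterByExpr with minimum count 10 and total 15, Benjamini-Hochberg over all genes, FDR 0.05). Fits used the 12 male libraries (15098 genes), the 11 Tau libraries (15419) or all 17 (15594). All 10 subunit genes passed the filter in each fit. CPM was scaled to total counts. At these totals 3 counts, the limit that a count of 0 allows, equal 0.134 to 0.212 CPM, for counting error only. Alternatives were DESeq2 1.42.0, RLE factors, no filter, voom in limma 3.58.1, a dentate granule covariate, other sets of libraries, each library left out, and other length models. Named genes were the 10 subunit genes, Grin3b, Acss2, and of the partner lists those called or the 3 with the smallest p. The subunit genes and lists were chosen with earlier results of these data known. Likeness used log2 CPM with a prior count of 2.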

Additional observations from a re-analysis of the deposited data

How the results depend on the processing

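No paired analysis was possible because the library numbers are not shared between groups. Changes of single subunit genes were tallied where edgeR's unadjusted p was under 0.05, the groups did not overlap, or an alternative called the gene. Of these, 440 values under an alternative kept their direction and side of the threshold, 18 passed it newly, and 1 (Grin1 between sexes without 331) no longer passed. Another 2 changed sign, both being Gria1 in male KO Tau against male KO PBS without 751. They were log2 0.026 by edgeR, over a range of -0.861 to 0.026 for single libraries left out, and 0.022 by DESeq2 on only these groups, over a range of -0.861 to 0.022. The number of the 10 genes called by edgeR moved from 0 to 1 (male KO Tau against male WT Tau), 3 (against male KO PBS) and 2 (the interaction) with 711 and 752 left out. By DESeq2 on only the groups compared, with single libraries left out, it ranged from 0 to 1 in male KO PBS against male WT PBS. In male KO Tau it ranged from 0 to 2 against male WT PBS and 0 to 3 against male WT Tau. edgeR called 0 in each case. Between sexes it was 1, with 3 by voom, 2 with 711 and 752 left out, and 0 (without 331) to 2 (without 711) over single libraries. The cause was not tested. Divided by the longest coding transcript, the mean level per kilobase was 77.7 for Gria2, 45.5 for Gria3, 73.7 for Grin1, 3.24 for Grin2d and 5.17 for Grin3a. Divided by coding length it was 364 for Gria1, 304 for Gria2, 88.7 for Gria3, 31.2 for Gria4, 109.6 for Grin1, 7.96 for Grin2a, 17.4 for Grin2b, 19.3 for Grin2c, 4.43 for Grin2d and 11.4 for Grin3a. The Gria1 to Gria2 ratio was 2.27 and 1.18 under these models, the Gria2 share of the AMPA total 24.7% and 38.9%, the Grin2a to Grin2b ratio 0.451 by coding length, the Grin1 share of the NMDA total 70.7% and the AMPA to NMDA ratio 3.17 by longest transcript. Shorter lengths give higher levels by construction. With 2 or 3 libraries a group, changes within the spread of Gria1 and Grin2a were not detectable.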
